A study of Mus musculus with 6 samples.

Results

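The glucocorticoid receptor gene Nr3c1 and 9 genes that glucocorticoids are well known to induce (Tsc22d3, Fkbp5, Per1, Klf9, Sgk1, Dusp1, Ddit4, Cited2 and Errfi1) were followed by RNA sequencing in haematopoietic stem cells. They were chosen by gene symbol and make up 10 of the 52183 genes in the deposited table. The cells were sorted by flow cytometry from bone marrow of female mice aged 4 months, and 2 groups of 3 libraries each were made, labelled Thbs1 knockout and control. Thbs1 encodes thrombospondin 1, a secreted matrix protein. The labels name no strain, no treatment and no part of Thbs1 that was deleted, and they do not say whether the deletion reaches every cell or whether each library came from its own animal. A p-value here therefore speaks of the scatter among these 6 libraries, part or all of which may be technical. The set was picked with earlier results of the same comparison known, and so was in part selected on the FPKM difference of Tsc22d3 between the groups. Differences between the groups are therefore described for these 10 genes and not tested. Other genes of the pathway were tested. Their lists were also drawn up with earlier results of these data known, so counts of calls by list are descriptions. Some genes are in several lists and are counted in each.

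The glucocorticoid receptor waits in the cytoplasm, bound to HSP90, HSP70 and co-chaperones that keep it able to bind hormone. Once corticosterone (in mice) binds, the receptor enters the nucleus, attaches to palindromic response elements in DNA and switches on genes that dampen inflammation, slow growth signalling and adjust metabolism. Several of its products feed back on the pathway: FKBP51, the product of Fkbp5, lowers the receptor's affinity for hormone. Many of the targets also answer to other inputs, such as the circadian clock, growth factors, heat and cell handling.

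The 6 libraries held between 22730000 and 30890000 reads, as read from the steps between FPKM values of short genes. FPKM scale the fragments of a gene by its exon length and by the size of the library, so levels of different genes can be set side by side. Thbs1 itself was read at 10.8, 8.5 and 7.68 FPKM in the knockout-labelled libraries and at 4.12, 13.8 and 2.33 FPKM in the control libraries. It was thus not lower in the knockout-labelled libraries (log2 change 0.65 ± 0.43 SE, limma adjusted p = 0.503), and all directions here follow the labels alone. Leaving out control library 2 gave a log2 change of Thbs1 of 1.26 (adjusted p = 0.0343 by limma), above 0 as well. Stem cell genes were read in every library, with Kit, the stem cell factor receptor, between 131 and 180 FPKM. The 12 stem cell genes summed to 830 to 934 FPKM in the knockout-labelled libraries and 835 to 930 FPKM in the controls, though Ly6a, the Sca-1 gene, fell to 76.9 FPKM in the knockout-labelled libraries, against 115 FPKM in the controls (limma adjusted p = 0.0286, lost in 4 of 6 fits without 1 library). Several defining markers of mature cells were near 0: Cd3e of T cells stayed at or below 0.08 FPKM, Ms4a1 of B cells at or below 0.02, and Ly6g of neutrophils was listed at 0 throughout. Lyz2 of myeloid cells was not, at 325 to 383 FPKM. Among all 12555 tested genes, a limma adjusted p under 0.05 called 0.566% higher and 0.996% lower in the knockout-labelled libraries.

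Levels of the 10 genes spanned more than 100-fold. Averaged over all 6 libraries, the order was Tsc22d3 (123 FPKM), Cited2 (93.8), Fkbp5 (23.9), Dusp1 (19.0), Ddit4 (10.4), Nr3c1 (10.3), Klf9 (8.31), Per1 (5.82), Sgk1 (2.07) and Errfi1 (0.96). Among neighbours in this order, ranges over the 6 libraries overlapped for Tsc22d3 with Cited2, Fkbp5 with Dusp1, and Ddit4 with Nr3c1. They also overlapped for Nr3c1 with Klf9 and for Klf9 with Per1. These ranges pool the 2 groups, and within each group Tsc22d3 and Cited2 separated fully. Fkbp5 was above Dusp1 in 5 of the 6 libraries, as were Nr3c1 above Klf9 and Klf9 above Per1. The other 4 steps of the order separated fully, in all 6 libraries. The receptor was a gene of middling level, at percentile 54.3 of the mean FPKM of all tested genes. Tsc22d3 stood at percentile 96.9, Cited2 at 95.2 and Sgk1 at 15.4. Between 61 reads (Errfi1) and 22711 reads (Tsc22d3) lay behind a single value.

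**Figure D1:**
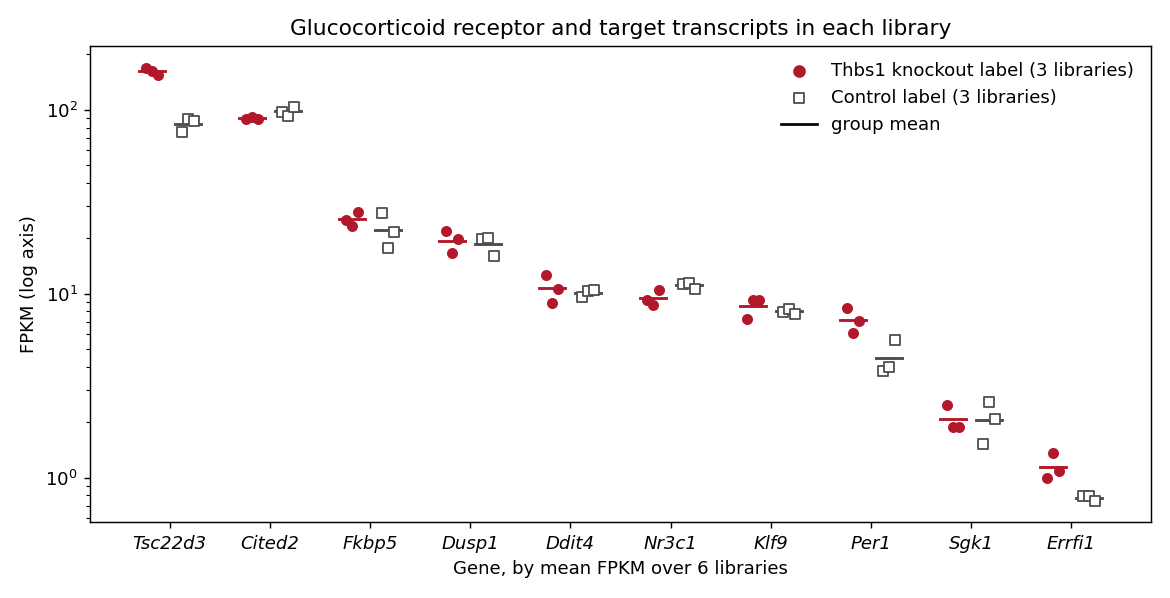
FPKM of the 10 genes on a log axis, in the 3 libraries labelled Thbs1 knockout (filled circles) and the 3 control libraries (open squares), with a bar at each group mean. Tsc22d3 lies between 154 and 169 FPKM in the knockout-labelled libraries and between 75.2 and 89.3 FPKM in the controls, while most other genes keep nearly the same level in both groups.

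Promoter sequences were available for 9 of the 10 genes, as 18 windows of 300 bases (250 before and 50 after a RefSeq transcription start, GRCm38.p6). They are shown because response elements are how the receptor finds its targets. The full glucocorticoid response element searched for was AGAACA, any 3 bases and TGTTCT, read on both strands. It occurred in 3 of 32851 promoter windows in the genome table (0.00913%), and 1 of these belongs to Sgk1. A looser form, GNACA, any 3 bases and TGTNC, was in 0.475% of all windows and, among the 10 genes, in the same Sgk1 window alone, where it lies inside the full element. Single arms of the element (AGAACA) were in 19.0% of all windows and in 4 of the 18, which belong to Sgk1 and Tsc22d3. Part of those in Sgk1 are the arms of its full element. Printed below are the window with the full element, the Tsc22d3 window with a single arm, and the windows of Per1 and Dusp1 that hold other elements. Capitals mark matches to the motifs named here: the glucocorticoid element and its single arms in Sgk1 and Tsc22d3, the E-box CACGTG in Sgk1, Per1 and Dusp1, and the cAMP response element TGACGTCA in Dusp1.
Sgk1, chr10:21993640-21993939, plus strand: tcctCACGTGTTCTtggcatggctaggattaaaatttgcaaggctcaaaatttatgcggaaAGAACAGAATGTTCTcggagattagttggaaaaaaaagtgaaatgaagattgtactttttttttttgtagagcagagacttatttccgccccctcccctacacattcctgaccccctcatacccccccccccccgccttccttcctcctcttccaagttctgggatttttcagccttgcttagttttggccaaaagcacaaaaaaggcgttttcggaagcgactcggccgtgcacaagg
Tsc22d3, chrX:140600473-140600772, minus strand: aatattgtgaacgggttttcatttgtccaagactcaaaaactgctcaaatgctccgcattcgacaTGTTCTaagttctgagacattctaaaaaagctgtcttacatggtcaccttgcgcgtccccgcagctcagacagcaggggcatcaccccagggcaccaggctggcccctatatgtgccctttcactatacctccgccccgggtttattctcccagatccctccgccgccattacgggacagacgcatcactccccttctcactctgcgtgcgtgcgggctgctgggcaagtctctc
Per1, chr11:69098699-69098998, plus strand: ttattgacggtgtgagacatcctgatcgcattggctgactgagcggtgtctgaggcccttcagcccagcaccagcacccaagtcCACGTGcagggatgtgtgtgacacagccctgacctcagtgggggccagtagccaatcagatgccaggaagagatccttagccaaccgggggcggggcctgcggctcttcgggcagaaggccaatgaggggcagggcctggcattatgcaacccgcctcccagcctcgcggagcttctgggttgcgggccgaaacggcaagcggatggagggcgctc
Dusp1, chr17:26508423-26508722, minus strand: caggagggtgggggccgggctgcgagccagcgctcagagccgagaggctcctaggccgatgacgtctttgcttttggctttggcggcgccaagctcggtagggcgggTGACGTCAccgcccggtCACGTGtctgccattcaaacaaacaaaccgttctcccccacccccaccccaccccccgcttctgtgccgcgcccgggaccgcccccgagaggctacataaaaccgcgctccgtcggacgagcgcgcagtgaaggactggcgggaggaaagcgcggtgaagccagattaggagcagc
The full element of Sgk1 begins 189 bases before the transcription start of the printed window. Sgk1 has several windows, each at its own start, and its other windows lack the full element. Tsc22d3 also has several, so counts among the 18 are of windows and not of genes. In the Sgk1 window the E-box and a single arm overlap and appear as a single run of capitals. E-boxes, the element of clock and MYC factors, were in 5 of the 18 windows (of Cited2, Dusp1, Fkbp5, Per1 and Sgk1) and in 7.15% of all windows. The cAMP response element was in 2 of the 18 windows (of Dusp1 and Errfi1) and in 1.79% of all windows. Klf9 had the FOXO motif GTAAACA, found in 3.65% of windows, and none of the 18 windows had the heat shock element (GAA, 2 bases, TTC, 2 bases, GAA), found in 0.603%. These matches describe letters in the sequence and not bound sites, and elements outside the windows were not searched.

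The receptor transcript was slightly lower in the knockout-labelled libraries. Nr3c1 (chromosome 18) was read at 9.22, 8.64 and 10.5 FPKM in the knockout-labelled libraries and at 11.3, 11.5 and 10.6 FPKM in the controls. Every knockout-labelled library was below every control, though the gap between the nearest values was 10.5 against 10.6 FPKM. The means were 9.46 ± 0.957 and 11.1 ± 0.460 FPKM (SD, n = 3 each), a ratio of 0.850. The log2 change was -0.22 ± 0.10 SE, with a 95% interval between -0.44 and 0.00. Rescaled to TPM, where every library sums to the same total, the change shrank to -0.03, while the median of all genes shifted to 0.19.

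Tsc22d3 (ENSMUSG00000031431, chromosome X, 140539528 to 140600659) was the gene of the set with the widest gap between the groups. It encodes GILZ, a leucine zipper protein that binds NF-kB and AP-1 and carries part of the anti-inflammatory action of glucocorticoids. Its values were 169, 161 and 154 FPKM in the knockout-labelled libraries, against 75.2, 89.3 and 86.4 FPKM in the controls. The groups were far apart relative to their own spread, with means of 162 ± 7.66 and 83.6 ± 7.46 FPKM (SD, n = 3 each), a ratio of 1.93. The set was in part selected on the difference of Tsc22d3, so its size is described here and not ranked among all genes. On the log2(FPKM + 1) scale the difference was 0.94 ± 0.08 SE. It stayed between 0.87 and 0.99 whichever library was left out. Tsc22d3 and Cited2 changed places between the groups: Tsc22d3 was above Cited2 in the 3 knockout-labelled libraries and below it in the 3 controls.

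Cited2 (chromosome 10), a transcriptional cofactor that binds CBP and p300 and is needed for stem cell maintenance in mice, was read at 89.5, 90.7 and 89.1 FPKM in the knockout-labelled libraries. The controls had 97.0, 93.0 and 104 FPKM. The groups did not overlap, but the ratio of the means was only 0.917 (89.8 ± 0.823 and 97.9 ± 5.46 FPKM; SD, n = 3 each). Under TPM its log2 change turned from -0.12 to 0.08.

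Per1 (chromosome 11, 69095217 to 69109960), a repressor of the circadian clock that glucocorticoids induce directly, was read at 8.37, 6.08 and 7.1 FPKM in the knockout-labelled libraries. The controls had 3.82, 3.98 and 5.6 FPKM. All 3 knockout-labelled libraries were above all controls, with 6.08 and 5.6 FPKM as the nearest pair. The means were 7.18 ± 1.15 and 4.47 ± 0.985 FPKM (SD, n = 3 each), a ratio of 1.61 and a log2 change of 0.59 ± 0.16 SE. Errfi1, which encodes the EGF receptor inhibitor MIG6, was the lowest of the set, with 0.99, 1.36 and 1.08 FPKM in the knockout-labelled libraries and 0.79, 0.79 and 0.75 FPKM in the controls. Here too the groups did not overlap, and between 61 and 127 reads lay behind each value. Errfi1 reached 1 FPKM in too few libraries to enter the fit, and a gene that passes such a filter through 1 group alone would have had to differ.

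Feedback and signalling targets kept close levels in the 2 groups. Fkbp5, the co-chaperone gene of the feedback loop, was read at 25.2, 23.4 and 27.9 FPKM in the knockout-labelled libraries. The controls had 27.6, 17.7 and 21.6 FPKM, so the highest control reached into the knockout range. Its log2 change was 0.21 ± 0.14 SE (95% interval -0.11 to 0.52), and it was 0.36 without control library 1 and 0.06 without control library 2. Dusp1, a phosphatase gene whose product switches off p38 and JNK, had 21.8, 16.6 and 19.8 FPKM in the knockout-labelled libraries and 19.9, 20.0 and 16.0 FPKM in the controls. The groups overlapped almost completely (0.06 ± 0.12 SE; 95% interval -0.21 to 0.32), and the sign turned with array weights, without knockout-labelled library 1 and without control library 3. Dusp1 shares 11 bases of exon with Ergic1 on the other strand.

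Sgk1, the serum- and glucocorticoid-regulated kinase gene, was among the lowest and flattest of the set. Of its windows, 1 carries the full response element printed above. Sgk1 had 2.47, 1.88 and 1.89 FPKM in the knockout-labelled libraries, against 1.53, 2.59 and 2.07 FPKM in the controls. Both the highest and the lowest value belonged to controls (log2 change 0.02 ± 0.17 SE; 95% interval -0.38 to 0.41). Its sign changed in 2 fits with a library left out and with array weights. Klf9, a Krüppel-like repressor, had 7.32, 9.28 and 9.26 FPKM in the knockout-labelled libraries and 7.95, 8.28 and 7.79 FPKM in the controls. Knockout-labelled library 1 was below all controls and the other two were above them (0.09 ± 0.11 SE; 95% interval -0.16 to 0.34). Ddit4, whose product REDD1 restrains mTORC1, had 12.7, 8.89 and 10.6 FPKM in the knockout-labelled libraries and 9.53, 10.4 and 10.5 FPKM in the controls. The control values lay inside the range of the knockout-labelled libraries (0.06 ± 0.12 SE; 95% interval -0.21 to 0.34), and the sign turned without knockout-labelled library 1.

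**Figure D2:**
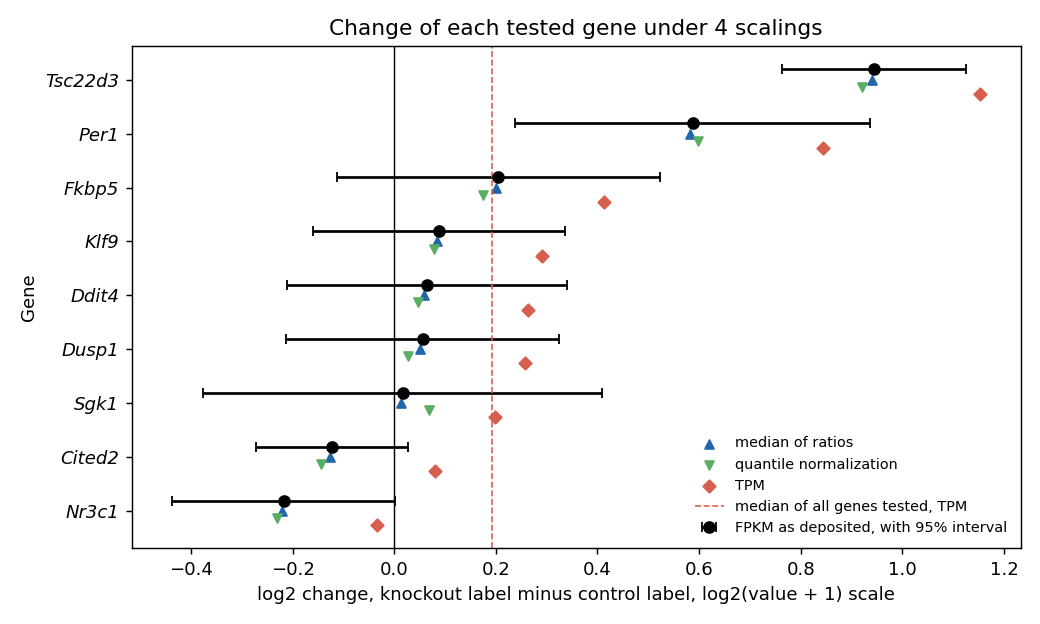
Log2 change of the 9 genes that entered the fit, knockout-labelled libraries minus controls, on the log2(value + 1) scale, with 95% intervals for FPKM as deposited (black) and the change under 3 other scalings. Tsc22d3 (0.94) and Per1 (0.59) lie farthest to the right with FPKM as deposited; TPM moves every gene to the right, as it moves the median of all genes (dashed line, 0.19).

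Over the 9 genes that entered the fit, 1 (Tsc22d3) was called higher and 0 lower, beside 0.566% and 0.996% of all tested genes (1.56% in either direction). The groups did not overlap in 2 genes above and 2 below, beside 12.6% and 10.1% of all tested genes. The median log2 change was 0.06, against 0.01 for all 12555 tested genes. Because the same comparison was known when the set was picked, nothing is read from these counts. None of the 10 genes lies on chromosome 2, which carries Thbs1.

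Genes that act on the receptor were tested by the fit across all genes. Of 20 chaperones and transport factors of receptor maturation, 5 rose, 1 fell and 14 were not called, beside 0.566% higher and 0.996% lower among all tested genes. Changes were above 0 in 17 of them, beside 53.4% of all tested genes, with a median log2 change of 0.14. The HSP90 genes overlapped between the groups and were not called. Hsp90aa1 averaged 98.85 FPKM in the knockout-labelled libraries and 95.17 FPKM in the controls, and Hsp90ab1 683.6 and 627.1 FPKM. Ptges3, in the same list, was lower in every knockout-labelled library (168 FPKM, against 191 FPKM in the controls) and not called. Hspa8, the constitutive HSP70 that starts folding of the receptor, rose to 620.2 ± 40.7 FPKM in the knockout-labelled libraries, against 344 ± 20.3 FPKM in the controls (log2 change 0.85 ± 0.08 SE, limma adjusted p = 0.000921). Its HSP40 partners rose with it. Dnaja1 was read at 43.5, 39.8 and 40.7 FPKM in the knockout-labelled libraries and at 27.8, 24.8 and 25.8 FPKM in the controls (adjusted p = 0.00381 by limma). Dnajb1 changed by 0.48 ± 0.09 (adjusted p = 0.0332 by limma). Stip1, the adaptor that passes the receptor between HSP70 and HSP90, averaged 202 FPKM in the knockout-labelled libraries and 150 FPKM in the controls (limma adjusted p = 0.0290).

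Fkbp4 encodes FKBP52, the immunophilin that replaces FKBP51 on the receptor and favours its transport to the nucleus. It was read at 205, 195 and 180 FPKM in the knockout-labelled libraries, against 147, 145 and 154 FPKM in the controls, without overlap (log2 change 0.38 ± 0.07 SE, limma adjusted p = 0.0377). FKBP52 transcript was thus called higher while the change of Fkbp5 was 0.21 ± 0.14, and the difference between these 2 changes was not tested. Kpnb1, importin beta 1 of the nuclear import machinery, fell to 26.9 FPKM in the knockout-labelled libraries, against 35.2 FPKM in the controls (limma adjusted p = 0.0356). The calls of Dnajb1 and Kpnb1 were lost in all 6 leave-one-out fits (each without 1 library), and those of Stip1 and Fkbp4 in 5 of the 6. Kpnb1 was also not called under TPM, and Fkbp4 not with scaling by the median of ratios. Part of the exons of Dnaja1, 7.0%, is shared with Smu1 on the other strand, and the library kit does not mark strand.

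Coregulators, the proteins that link the bound receptor to chromatin and polymerase, gave no call, and the sign of their changes turned with the scaling. Of 20 tested, 0 were called by limma and 4 had an unadjusted p under 0.05, beside 16.4% of all tested genes. Changes were below 0 in 15 of them, with a median of -0.13, but under TPM 15 of 21 were above 0. Against the median of all genes, 15 lay below it with FPKM as deposited and 15 under TPM. Arid1a, a subunit of the BAF chromatin remodeller, stood at 13.2 FPKM in the knockout-labelled libraries and 17.1 FPKM in the controls (limma adjusted p = 0.0829), and Smarca4, its ATPase BRG1, at 33.1 FPKM in the knockout-labelled libraries and 38.4 FPKM in the controls (adjusted p = 0.192). Of 16 genes for related steroid receptors and hormone handling, 9 were too low to test and 0 were called by limma, with 1 at an unadjusted p under 0.05. That was Srd5a1, which encodes a 5-alpha-reductase that inactivates glucocorticoids (5.28 FPKM in the knockout-labelled libraries and 4.12 FPKM in the controls, adjusted p = 0.249).

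**Figure D3:**
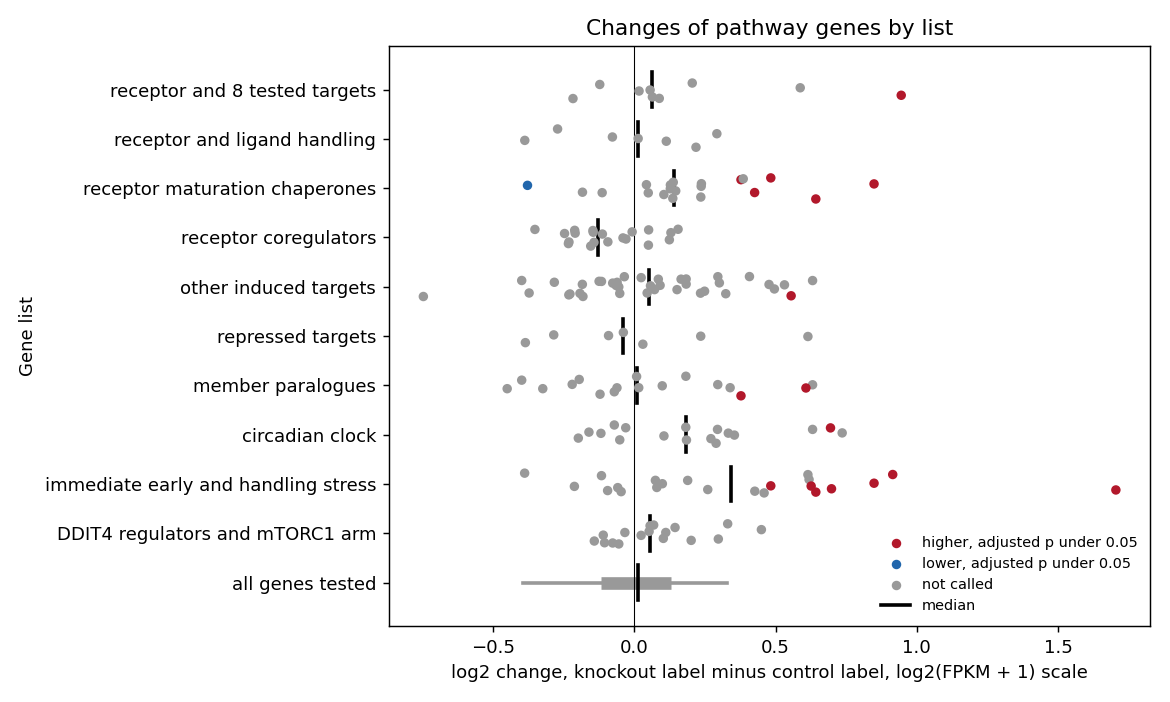
Log2 change of each tested gene (points), knockout-labelled libraries minus controls on the log2(FPKM + 1) scale, by gene list, with the list median (black bar); the bottom row gives the 25th to 75th (thick) and 5th to 95th (thin) percentiles of all 12555 tested genes, the latter -0.39 to 0.33. Called genes, in colour, are found mainly among the chaperones and the immediate early and handling-stress genes. Of these, Hspa8, Dnaja1 and Dnajb1 are in both lists and are drawn in each. The median of the other induced targets (0.05) is near that of all genes (0.01).

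Changes in the wider group of glucocorticoid-induced genes went in both directions, as they did among all tested genes. Of 50 further targets, 12 were too low to test. Among these were the liver enzymes Tat, Pck1 and G6pc, none of which exceeded 0.08 FPKM. Of the 38 tested, 1 was called higher and 0 lower, beside 0.566% and 0.996% of all tested genes. An unadjusted limma p under 0.05 was reached by 10, beside 16.4% of all tested genes. Changes were above 0 in 21 and below 0 in 17, beside 53.4% above 0 among all tested genes. The groups did not overlap in 10 above and 3 below, beside 12.6% and 10.1% of all tested genes. Among the 17, Klf13 stood at 5.74 FPKM in the knockout-labelled libraries and 7.89 FPKM in the controls, without overlap (limma adjusted p = 0.106). Pim1 overlapped between the groups, at 12.9 FPKM in the knockout-labelled libraries and 22.6 FPKM in the controls (adjusted p = 0.1165 by limma). Txnip, the thioredoxin inhibitor that limits glucose uptake, rose to 463 ± 66.0 FPKM in the knockout-labelled libraries, against 313 ± 17.8 FPKM in the controls (log2 change 0.56 ± 0.10 SE, limma adjusted p = 0.0344). The call of Txnip was lost in all 6 leave-one-out fits, and 19.4% of its exon bases are shared with the antisense gene Gm15441, read at 2.46 to 3.63 FPKM.

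Mt1, a metallothionein that binds zinc, stood at 27.4, 37.3 and 34.0 FPKM in the knockout-labelled libraries and at 20.9, 22.4 and 25.5 FPKM in the controls (limma adjusted p = 0.0829). The groups did not overlap, yet the gene was not called. Among 30 genes that the receptor is known to repress, 23 were too low to test. Of the other 7, 0 were called by limma, with 2 at an unadjusted p under 0.05, beside 16.4% of all tested genes. Icam1, an adhesion molecule, stood at 14.0 FPKM in the knockout-labelled libraries and 11.7 FPKM in the controls (limma adjusted p = 0.275). Nr4a1, an orphan receptor that glucocorticoids repress in the pituitary, stood at 6.09 FPKM in the knockout-labelled libraries and 3.65 FPKM in the controls (adjusted p = 0.172).

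Paralogues of the targets were compared because family members can differ in their inputs. Of 17 tested, 2 rose, 0 fell and 15 were not called, with a median log2 change of 0.01; among all tested genes 0.566% were called higher and 0.996% lower. Besides Fkbp4, the relative of Fkbp5, this was Klf10, a TGF-beta-induced relative of Klf9. Klf10 was read at 108, 101 and 98.1 FPKM in the knockout-labelled libraries, against 60.5, 75.1 and 65.6 FPKM in the controls (log2 change 0.61 ± 0.09 SE, limma adjusted p = 0.0112). Without knockout-labelled library 2 its adjusted p was 0.0502 by limma. Its call was also lost with no filter (limma adjusted p = 0.132) and without a trend in eBayes (limma adjusted p = 0.0619).

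Clock genes stand beside Per1, which belongs to both the glucocorticoid and the circadian programme. Of 17 other clock genes tested, 1 rose, 0 fell and 16 were not called, beside 0.566% higher and 0.996% lower among all tested genes. Changes were above 0 in 11 of the 17, beside 53.4% of all tested genes, with a median log2 change of 0.18. The groups did not overlap in 8 above and 1 below, beside 12.6% and 10.1% of all tested genes. Per2, the partner of Per1, was read at 6.85, 5.31 and 6.98 FPKM in the knockout-labelled libraries and at 4.34, 3.86 and 3.1 FPKM in the controls. Its groups did not overlap, and it missed the threshold (log2 change 0.63 ± 0.14 SE, limma adjusted p = 0.0726). Per3 overlapped between the groups, with 3.68, 5.03 and 4.59 FPKM in the knockout-labelled libraries and 5.34, 4.25 and 4.49 FPKM in the controls.

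Nr1d1, which encodes the clock repressor REV-ERB alpha, rose to 5.69 ± 0.532 FPKM in the knockout-labelled libraries, against 3.15 ± 0.545 FPKM in the controls (log2 change 0.69 ± 0.14 SE, limma adjusted p = 0.0401). That call was lost in all 6 leave-one-out fits. Thra, on the opposite strand, shares 8.5% of the exon bases of Nr1d1 and was read at 6.18 to 7.64 FPKM in the knockout-labelled libraries and 9.04 to 10.5 FPKM in the controls. Csnk1d, a kinase that phosphorylates PER proteins, stood at 65.5 FPKM in the knockout-labelled libraries and 53.5 FPKM in the controls (adjusted p = 0.0997 by limma). Arntl, which encodes the activator BMAL1, overlapped between the groups, with 6.08, 4.25 and 6.03 FPKM in the knockout-labelled libraries and 4.74, 8.88 and 4.89 FPKM in the controls. The labels give no time of day at which the marrow was taken.

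**Figure D4:**
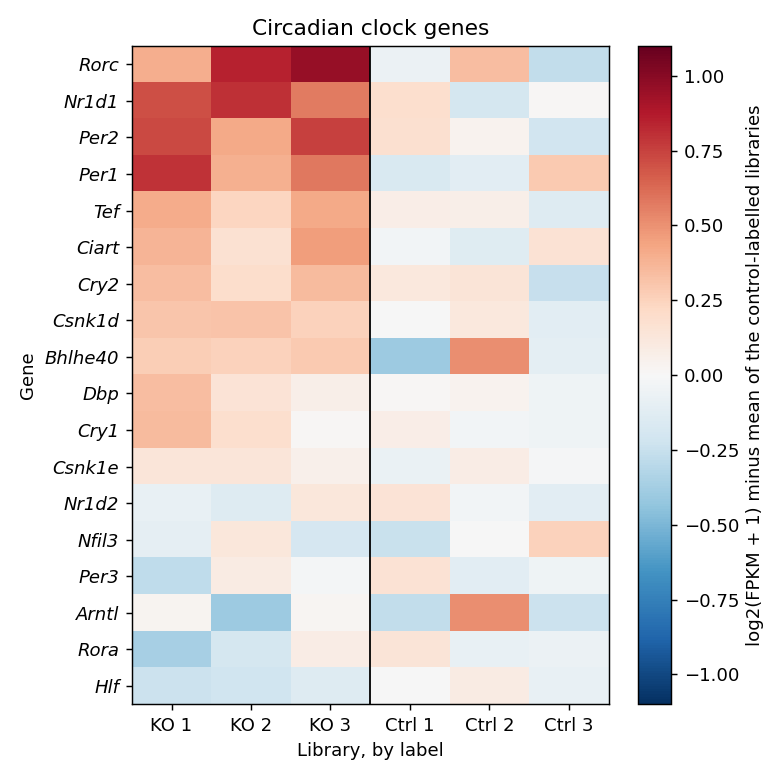
Log2(FPKM + 1) of Per1 and the 17 other tested clock genes in each library, minus the mean of the 3 control libraries, with knockout-labelled libraries on the left and genes ordered by their change. Nr1d1 (0.69), Per2 (0.63) and Per1 (0.59) are among the strongest red rows, while Nr1d2 (-0.03), Per3 (-0.07) and Arntl (-0.12) vary around 0.

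Immediate early and handling-stress genes share inputs with Per1, Dusp1, Sgk1 and Klf9. Of 22 tested, 7 rose, 0 fell and 15 were not called, beside 0.566% higher and 0.996% lower among all tested genes. The median log2 change was 0.34. Changes were above 0 in 16 and below 0 in 6, beside 53.4% above 0 among all tested genes. The summed level of the list was 1390 to 1530 FPKM in the knockout-labelled libraries and 892 to 982 FPKM in the controls. Most of that gap came from Hspa8, also counted among the chaperones, and from Myc, a growth-promoting factor read at 387, 423 and 400.1 FPKM in the knockout-labelled libraries and at 273, 248 and 225 FPKM in the controls (limma adjusted p = 0.00446). Of those that rose, Hspa8, Dnaja1 and Dnajb1 are also among the chaperones that rose, so the calls of the 2 lists are not separate. The others were Myc, Egr1 and the heat shock genes Hspa1b and Hsph1. Fos, the prototype of the immediate early genes, was read at 1.03, 0.65 and 0.99 FPKM in the knockout-labelled libraries and at 1.16, 1.2 and 1.18 FPKM in the controls, and was not called. Hspa1b, the heat-inducible HSP70, was read at 10.1, 5.99 and 4.27 FPKM in the knockout-labelled libraries and at 0.95, 1.41 and 1.51 FPKM in the controls (limma adjusted p = 0.0112). Its near-identical copy Hspa1a can share its reads. Egr1, an immediate early factor, was read at 15.6, 18.7 and 15.7 FPKM in the knockout-labelled libraries and at 11.9, 9.83 and 9.67 FPKM in the controls (adjusted p = 0.0286 by limma). The call of Egr1 was lost in 5 of the 6 leave-one-out fits. The part of these genes in the values of Tsc22d3, Per1 and Txnip was not tested.

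Genes of the mTORC1 arm, on which REDD1 acts, were listed together with regulators of Ddit4 and related stress genes, and gave no call. Of 17 genes tested, limma called 0, 3 reached an unadjusted p under 0.05, beside 16.4% of all tested genes, and the list had a median log2 change of 0.06. Akt1s1, which encodes the mTORC1 inhibitor PRAS40, stood at 26.8 FPKM in the knockout-labelled libraries and 21.1 FPKM in the controls, without overlap (limma adjusted p = 0.0544). Trib3, a target of ATF4 that lies on chromosome 2, stood at 20.4 FPKM in the knockout-labelled libraries and 14.3 FPKM in the controls (adjusted p = 0.196).

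Markers of mature blood cells were also measured. The summed level of 12 lymphocyte markers was 78.3 to 89.4 FPKM in the knockout-labelled libraries and 103 to 129 FPKM in the controls. Nkg7 and Cd79b carried nearly all of it, and Nkg7, a granule protein of cytotoxic cells, fell to 54.6 FPKM in the knockout-labelled libraries, against 88.6 FPKM in the controls (limma adjusted p = 0.0332). That call was lost in 4 of the 6 leave-one-out fits. Cd79b, a B cell receptor subunit, was read at 23.3 to 29.6 FPKM over the 6 libraries and turned sign under TPM, while its partner Cd79a stayed at or below 0.35 FPKM, Cd3e at or below 0.08 FPKM and Ms4a1 at or below 0.02 FPKM. Summed levels of 12 granulocyte and monocyte markers were 335 to 370 FPKM in the knockout-labelled libraries and 358 to 400 FPKM in the controls. Lyz2 carried nearly all of this sum, at 345 FPKM in the knockout-labelled libraries and 367 FPKM in the controls. Of the 4 tested, 0 had changes above 0. Cd68 stood at 7.40 FPKM in the knockout-labelled libraries and 11.7 FPKM in the controls, without overlap (limma adjusted p = 0.0857). For 8 erythroid markers the sums were 22.5 to 26.9 FPKM in the knockout-labelled libraries and 32.5 to 39.0 FPKM in the controls. Most of that gap was Hbb-bt, an adult beta-globin gene that fell to 4.06 FPKM in the knockout-labelled libraries, against 14.8 FPKM in the controls (limma adjusted p = 0.00247), and whose reads may be split with its close relative Hbb-bs. Klf1, an erythroid transcription factor, stood at 12.9 FPKM in the knockout-labelled libraries and 10.3 FPKM in the controls, not called. The 6 megakaryocyte markers summed to 266 to 373 FPKM in the knockout-labelled libraries and 385 to 487 FPKM in the controls. Nearly all of that gap was Pf4, a platelet chemokine, at 189 FPKM in the knockout-labelled libraries and 315 FPKM in the controls (limma adjusted p = 0.0594), and the other 5 markers overlapped between the groups. The part of these cell types in the values of Tsc22d3 was not tested. In bulk samples, fewer cells of a type and less RNA per cell cannot be told apart.

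Genes with a profile most like that of Tsc22d3 over the 6 libraries were Efna1, Hspa8 and Art4. Likeness was the root mean square difference between log2(FPKM + 1) values, each gene centred on its own mean, and came to 0.127, 0.129 and 0.146. Efna1, an ephrin ligand, was read at 17.8, 17.7 and 14.7 FPKM in the knockout-labelled libraries and at 9.16, 10.03 and 9.82 FPKM in the controls. Art4, a mono-ADP-ribosyltransferase gene, had 84.3, 75.9 and 75.6 FPKM in the knockout-labelled libraries and 47.4, 44.9 and 49.3 FPKM in the controls. For Nr3c1 the nearest were Slain1, Ncoa6 and Fem1c, at 0.0276, 0.0300 and 0.0317. Slain1 stood at 19.0 ± 1.80 FPKM in the knockout-labelled libraries and 22.1 ± 0.523 FPKM in the controls (SD, n = 3 each). Ncoa6, a nuclear receptor coactivator gene, stood at 3.36 ± 0.255 FPKM in the knockout-labelled libraries and 4.12 ± 0.157 FPKM in the controls. Fem1c stood at 9.53 ± 0.953 FPKM in the knockout-labelled libraries and 11.4 ± 0.397 FPKM in the controls. The profile of Tsc22d3 is mostly its difference between the groups, on which the set was in part selected. Likeness to it therefore mainly picks genes with a similar difference, and says nothing of shared regulation. These are descriptions of profiles over 6 libraries and carry no test.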

How the data were processed

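Transcripts were measured in 6 libraries, made per the labels' protocols from 2 ng of total RNA with the SMART-Seq v4 kit, which does not mark strand. Builds GRCm38 and mm10 and the tools STAR, edgeR and FastQC 0.11.5 appear in the submitters' processing notes; the role of each, and the annotation, are not given in the sources used. The authors deposited FPKM for 52183 genes, with 2 decimals. All identifiers matched GENCODE release M21 (GRCm38), the source of positions and exon lengths; promoter sequences are from RefSeq (GRCm38.p6). Depth was the read number that made values of genes with at most 400 bp of exon whole within 0.1 read (99.4% to 99.7% of them). Counting error alone is covered by such read numbers.

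Because FPKM are not counts, log2(FPKM + 1) was tested with limma 3.58.1 in R 4.3.3 (eBayes with trend, two-sided, group as the single term), for the 12555 genes that reached 1 FPKM in 3 or more libraries. Benjamini-Hochberg adjustment over all of them had a threshold of 0.05. A log2 change on this scale understates the change of low genes. Members and gene lists were chosen with earlier results of these data known. Named genes were taken from the members, called list genes, the 3 list genes with the smallest unadjusted p, the 3 nearest profiles and Thbs1. Named for their role were Tat, Pck1, G6pc, Per3, Arntl, Nr1d2, Thra, Cd3e, Ms4a1, Cd79a, Klf1, Lyz2, Fos, Ly6g, Kit, Hsp90aa1, Hsp90ab1 and Ptges3. Klf13 and Pim1 were named to show induced targets with changes below 0. Some libraries of a group could share a source; libraries of a group correlated at 0.983 to 0.987 across genes and none was a copy. Alternatives are those listed in the closing section.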

Additional observations from a re-analysis of the deposited data

How the results depend on the processing

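Each library was left out in turn, and the fit was repeated with the replicate number as a block, with array weights, without a trend in eBayes, with TPM, quantile or median-of-ratios scaling, with 0.1 as pseudocount, unfiltered, and with genes averaging 5 FPKM or more. For the 9 members tested, 127 of 134 log2 changes stayed within 1 SD of the replicates of the value given, and the 7 that moved further were all under TPM. The count of members called higher was 1, and 2 under TPM; as the set was picked with this comparison known, nothing is read from either. Under TPM the median of all genes shifted by 0.19 and calls came to 2016 higher and 128 lower, 94.0% higher in place of 36.2%. Counts of all genes called higher and lower were 71 and 125 as reported, 8 and 16 with no filter, 24 and 65 without trend, 112 higher with array weights and 112 with the 5 FPKM mean, and 27 and 54 with the replicate block. With a library left out they were 16 to 38 higher and 43 to 77 lower, fits with fewer libraries. Over the 153 tested pathway genes outside the members, 12 higher and 1 lower became 48 and 0 under TPM, 1 and 0 with no filter, 5 and 0 without trend, 6 and 0 with the replicate block, and 5 to 9 and 0 to 1 with a library left out. Of these 13 calls, 5 (Hspa8, Dnaja1, Myc, Hspa1b and Hsph1) held in all 6 leave-one-out fits. By list, TPM called 14 chaperones, 8 other induced targets, 6 paralogues, 5 clock genes and 11 immediate early and handling-stress genes higher. It also called 5 genes of the Ddit4 regulator and mTORC1 list, 2 coregulators, 2 repressed targets and 1 hormone-handling gene higher. It called none lower in these lists. The other settings with all libraries called 1 to 6, 0 to 3, 0 to 3, 0 to 2, 1 to 7 and 0 to 1 of the first 6 lists higher. Signs turned under TPM for Cd79b (0.005), Lyz2 (0.117), Cpa3 (0.056), Gp9 (0.087) and Itga2b (0.044), and for Fcer1a with array weights (0.021), without knockout-labelled library 1 (0.054) and without control library 3 (0.173), its leave-one-out range being -0.437 to 0.173; none of these was called. The cause of these shifts was not tested. Same-numbered libraries did not deviate together (correlations -0.110, 0.0372 and -0.0791 across genes), so the numbers are not taken as pairs. The filter at 1 FPKM kept Errfi1 out of the fit, with 61 to 127 reads behind its values.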
